A study of Mus musculus with 8 samples.

Results

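The genes described here are those that admit pyruvate to mitochondria and oxidise it there. Pdha1, Pdhb, Dlat and Pdhx encode subunits of the pyruvate dehydrogenase complex, Pdk1, Pdk2 and Pdk4 its kinases, Pdp1 one of its phosphatases, and Mpc1 and Mpc2 the mitochondrial pyruvate carrier. They were chosen by name, as a list of 10 genes. Each had a row among the 55471 genes of the count files, and all 10 passed the filter on low counts that left 15084 genes for testing.

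RNA sequencing was performed on small pieces of heart from wild-type (WT) and TAZG197V mice, with 4 libraries for each genotype, and the comparison asks how heart transcripts differ between the genotypes at the age of 14 weeks. TAZG197V mice carry an altered amino acid in Tafazzin, the enzyme that remodels the acyl chains of cardiolipin in mitochondria, and its gene is named Taz in the files. The line was made by CRISPR/Cas9 editing of C57BL/6N zygotes and was then crossed to C57BL6/J, and the study used hemizygous males. The mutation is carried in all tissues, neither genotype was treated, and the labels number the libraries without stating whether each is a separate animal, so that p-values measure the spread between these samples.

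Total counts ranged from 23055689 to 36301031 per library. The names of the deposited files carry a lane number, taken here as the sequencing lane although the labels do not state one. Taz itself stood at 60.9 ± 2.36 CPM (TMM-scaled counts relative to library size, mean ± SD, n = 4) in WT and at 47.3 ± 2.60 CPM in TAZG197V, and counts per gene cannot tell the mutant transcript from the normal one. Of 6 ventricular muscle genes, none was near 0 in any library. Their summed level was 55230 to 63730 CPM in WT and 48190 to 51570 CPM in TAZG197V, where 2 of the 6 (Tnnt2 and Tnni3) were lower by the test. Some markers of other cell types also moved with genotype. Over all genes tested 33.5% differed by the test, 18.5% being higher and 15.1% lower. Of 5 fibroblast genes 3 were lower (summed level 879.1 to 1463 CPM in WT and 604.9 to 835.9 CPM in TAZG197V), and of 5 endothelial genes 2 were lower (699.2 to 962.8 and 544.9 to 741.4 CPM). Of 3 smooth muscle genes 2 were lower and Acta2 was higher, and no gene of these 3 lists was at 0 throughout. Of 4 macrophage genes none differed by the test, and their summed level was 114.4 to 131.3 CPM in WT and 107.1 to 163.5 CPM in TAZG197V. In the skeletal muscle list, Acta1, an actin also made by heart muscle, was higher (256.3 ± 110.1 and 810.1 ± 289.7 CPM), and the list summed to 1302 to 2122 CPM in WT and 2027 to 2709 CPM in TAZG197V, although its defining fast myosin genes Myh1 and Myh4 were near 0 in all libraries. In bulk tissue, fewer cells of a type and less RNA per cell cannot be told apart, and the part of these differences in the results below was not tested. WT 1, WT 2 and both libraries with the number 4 stood apart. The atrial light chain genes Myl7 and Myl4 were at 26.96 and 35.21 CPM in WT 1 and at 384.6 and 411.1 CPM in WT 2, while the other 6 libraries had at most 1.28 and 3.81 CPM. In the same list of 4 atrial genes, Sln followed them, with 9.81 CPM in WT 1 and 86.65 CPM in WT 2. Nppa did not set WT 1 apart, with 43.0 CPM there, 67.6 CPM in WT 3 and 126.6 CPM in TAZG197V 2. Haemoglobin genes took 5.00% of all counts of WT 4, whereas the other 7 libraries had 0.0213% to 0.0960%. A list of 6 brain genes summed to 93.7 CPM in WT 4 and 215.7 CPM in TAZG197V 4, against 5.56 to 10.1 CPM in the others. For the 10 genes, fits without these libraries are given where leaving them out changed a call. For most genes of the further lists such fits are not given.

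The pyruvate dehydrogenase complex converts pyruvate to acetyl-CoA and so links glycolysis to the citric acid cycle. Its E1 component, a tetramer of alpha and beta chains, decarboxylates pyruvate, E2 passes the acetyl group to coenzyme A, and E3 reoxidises the lipoyl arm. Kinases switch the complex off by phosphorylating the alpha chain of E1, and phosphatases switch it back on. In the heart, which burns mainly fatty acids, the kinases hold back glucose oxidation when fat is abundant, and Pdk4 is the member whose transcript rises on fasting.

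Of the 10 transcripts, 4 differed by the test, Pdhb being higher and Dlat, Pdk2 and Mpc2 lower in TAZG197V. Among all 15084 genes tested, 33.5% were called, 18.5% higher and 15.1% lower, so that 4 of 10 is near the share of the whole table. A call needed an adjusted p under 0.05 in edgeR's quasi-likelihood test, a fitted level in one genotype over 15% above the other, and a mean scaled count of at least 50, which all 10 genes met. Of the 12357 genes with that count, 40.9% were called. Without WT 1 or without WT 2 the count was 4 as well, 1 higher and 3 lower. Without both number 4 libraries 4 of the 10 were again called, but 2 higher and 2 lower, because Pdk4 gained a call and Dlat lost its own, and with the lane of the file names in place of the surrogate variables Pdk2 was the 1 gene called. The changes of the 4 genes called in the fit reported were modest, with log2 fold changes from -0.36 for Pdk2 to 0.26 for Pdhb. None of the 10 genes was called at a fold change of at least 1.5 in that fit. Pdk4 had a fitted change of 1.50-fold but was not called, as its adjusted p was 0.0621 in edgeR. The median log2 fold change of the 10 genes was 0.06 against -0.01 over all genes tested. Pdk2 was the 1 gene of the 10 whose genotypes did not overlap, while 33.2% of all genes tested did not overlap, 19.3% with TAZG197V higher and 13.9% with it lower. In the fit reported, the larger differences lay in 2 neighbours of the list, the phosphatase subunits Pdp2 and Pdpr, which fell by 1.32 and 0.64 on the log2 scale. Without both number 4 libraries Pdk4, at 0.79, was farther from 0 than Pdpr, at -0.54, but not than Pdp2, at -1.20.

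**Figure D1:**
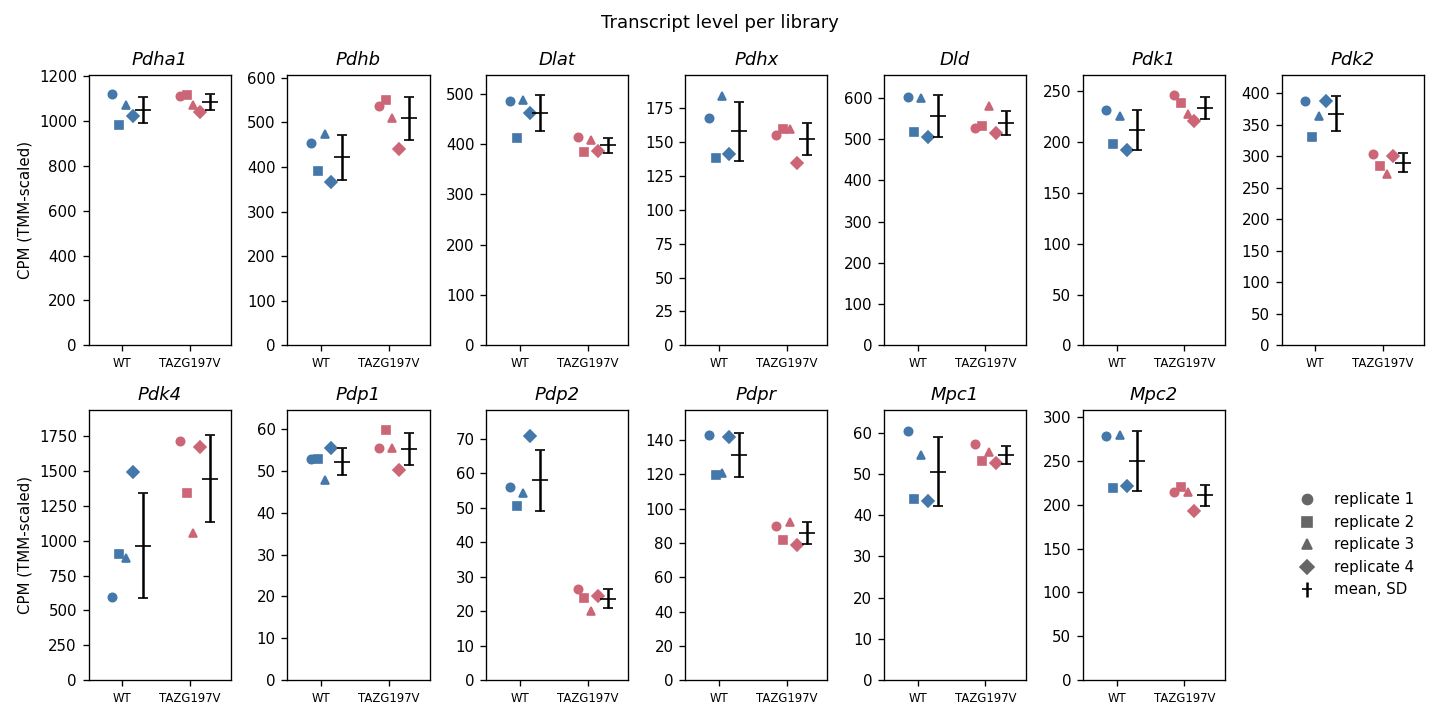
Level of the 10 transcripts and of Dld, Pdp2 and Pdpr in each library, in TMM-scaled CPM on axes that start at 0, with the mean and SD (n = 4) beside the points of each genotype. Pdk2, Pdp2 and Pdpr show no overlap between WT and TAZG197V, and the Pdk4 point of WT 4 at 1489 CPM lies among the TAZG197V points.

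Pdha1 encodes the catalytic alpha chain of E1, which carries the sites that the kinases phosphorylate (ENSMUSG00000031299, chrX:160122209-160138413, minus strand, mm10). Its level was 1120, 984, 1072 and 1025 CPM in WT 1 to 4 and 1112, 1116, 1073 and 1042 CPM in TAZG197V 1 to 4. The ranges overlapped, and the log2 fold change was 0.04 with a 95% interval of -0.11 to 0.19 (adjusted p = 0.674, edgeR). The 95% limits of the fold change were 0.925 and 1.14. Part of this gene is hard to count, since 16.1% of its exon bases overlap Map3k15 on the annotation and 12.9% of its 50-base windows also occur elsewhere in the annotated transcripts.

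Pdhb encodes the beta chain, the partner of Pdha1 in E1 (ENSMUSG00000021748, chr14:8165996-8173025, minus strand). WT 1 to 4 had 454.5, 391.5, 473.6 and 365.7 CPM, and TAZG197V 1 to 4 had 536.1, 549.2, 509.4 and 440.8 CPM. Only TAZG197V 4 lay within the WT range. The mean rose from 421.3 ± 51.0 to 508.9 ± 48.3 CPM, and the log2 fold change was 0.26 (SE 0.0708, 95% interval 0.10 to 0.43, adjusted p = 0.0191, edgeR). The call was lost without TAZG197V 1 (adjusted p = 0.0727) or without TAZG197V 2 (0.0774), and it was also lost with no surrogate variables (0.0763) or with the lane of the file names in their place (0.0849). Of the windows of this gene, 11.4% also occur elsewhere.

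Both chains of E1 are present in equal number in the enzyme, so the ratio of their levels per kilobase of exon was also taken. Pdha1 stood at 2.60 ± 0.230 times Pdhb in WT and at 2.22 ± 0.155 times in TAZG197V, with overlapping ranges of 2.34 to 2.90 and 2.10 to 2.445. With the longest transcript as the length the means were 2.10 and 1.79. This is a ratio of transcript levels, described without a test.

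Dlat encodes E2, the acetyltransferase that forms the core of the complex (ENSMUSG00000000168, chr9:50634633-50659780, minus strand). Its level was 486.1, 412.0, 487.1 and 462.4 CPM in WT and 413.6, 384.5, 407.4 and 386.3 CPM in TAZG197V. The genotypes touched at 1 point only, WT 2, the library with the most atrial transcripts, lying just under TAZG197V 1. The mean fell from 461.9 ± 35.2 to 397.9 ± 14.7 CPM, or by 15.0% in the fitted values, and the log2 fold change was -0.23 (SE 0.0630, 95% interval -0.38 to -0.09, adjusted p = 0.0195, edgeR). Without WT 2 the log2 fold change was -0.26 (adjusted p = 0.0110). Without TAZG197V 4 the adjusted p was 0.0759 and without both number 4 libraries it was 0.0505. The lane as covariate gave 0.0568 and no filter on low counts gave 0.0733.

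Pdhx encodes the E3-binding protein, which anchors E3 to the E2 core (ENSMUSG00000010914, chr2:103021075-103073513, minus strand). WT libraries had 168.0, 138.5, 184.3 and 141.5 CPM, and TAZG197V libraries 155.5, 159.9, 159.5 and 134.7 CPM. The ranges overlapped fully apart from TAZG197V 4, the lowest of the 8. The log2 fold change was -0.07 (95% interval -0.22 to 0.08, adjusted p = 0.417, edgeR).

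E3, dihydrolipoamide dehydrogenase, is encoded by Dld and is shared with the other 2-oxoacid dehydrogenases. It was not among the 10 genes. Its mean of 555.5 ± 51.9 CPM in WT was close to the 538.2 ± 28.8 CPM of TAZG197V, a log2 fold change of -0.05 (adjusted p = 0.603, edgeR). Of the 5 subunit genes of the complex, 1 rose, 1 fell and 3 did not pass the test, with fold changes inside 1.5 in every case. That is near the share called of all genes tested (33.5%) and of those with the minimum count (40.9%). Within each library, Dlat relative to Pdhb per kilobase lay between 0.813 and 0.999 in WT and between 0.553 and 0.692 in TAZG197V. That ratio was chosen after its values were seen and is given without a test.

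Pdk2 encodes the kinase that is found in most tissues and in the heart is abundant beside Pdk4 (ENSMUSG00000038967, chr11:95026258-95041354, minus strand). WT 1 to 4 had 387.5, 329.6, 363.5 and 388.2 CPM, and TAZG197V 1 to 4 had 302.7, 283.9, 271.3 and 301.0 CPM. Every TAZG197V library was below every WT library. The mean fell from 367.2 ± 27.6 to 289.7 ± 14.9 CPM, and the log2 fold change was -0.36 (SE 0.0650, 95% interval -0.51 to -0.21, adjusted p = 0.00329, edgeR), or 22.1% lower. This call held in all 17 alternative fits, with log2 fold changes of -0.39 to -0.32 and a highest adjusted p of 0.0149.

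Pdk4 encodes the kinase under control of fasting, fatty acids and glucocorticoids (ENSMUSG00000019577, chr6:5483351-5496309, minus strand). Its level was 592.7, 903.5, 876.2 and 1489 CPM in WT and 1712, 1339, 1055 and 1675 CPM in TAZG197V. The spread was wide, with an SD of 39.0% of the mean in WT and 21.4% in TAZG197V, and WT 4 was above TAZG197V 2 and 3. The log2 fold change was 0.59 (SE 0.216, 95% interval 0.09 to 1.08), which corresponds to 1.50-fold, with an adjusted p of 0.0621 in edgeR, so that Pdk4 was not called. Without WT 4, the library with the haemoglobin reads, the log2 fold change was 0.87 and the adjusted p was 0.00685. Without TAZG197V 4 they were 0.68 and 0.0312, and without both number 4 libraries 0.79 and 0.0163. No filter on low counts also gave a call (0.71 and 0.00264), while the other 13 alternatives did not. In the other direction, without WT 1, the lowest of the WT libraries and 1 of the 2 with raised Myl7 and Myl4, the values were 0.40 and 0.141. Whether the RNA from other sources in the number 4 libraries bears on the Pdk4 level was not tested.

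Pdk1 encodes a kinase known as a target of the hypoxia factor HIF-1 (ENSMUSG00000006494, chr2:71873224-71903858, plus strand). WT libraries had 231.2, 197.9, 226.1 and 192.4 CPM and TAZG197V libraries 246.1, 238.9, 228.0 and 221.2 CPM. The ranges overlapped, TAZG197V 3 and 4 lying below WT 1. The log2 fold change of 0.14 had a 95% interval of -0.02 to 0.29 (adjusted p = 0.156, edgeR), and no alternative called it. Pdk3, a kinase best known from testis and brain and not among the 10 genes, was scarce, with 2.81 ± 1.30 CPM in WT against 3.38 ± 0.395 CPM in TAZG197V. It differed by 0.37 on the log2 scale (adjusted p = 0.344, edgeR). Without WT 4, where it was 4.02 CPM, Pdk3 was called at 0.68 (adjusted p = 0.0305), but without both number 4 libraries it was not (0.52 and 0.0849).

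Per kilobase of exon, which allows genes to be set side by side, Pdk4 was the leading kinase transcript in every library with the union of exons as the length. With the longest transcript Pdk2 led narrowly in WT 1, with 172.5 against 170.1 CPM per kilobase for Pdk4. Over the union of exons, the Pdk4 level was 168.8, 257.3, 249.5 and 424.0 CPM per kilobase in WT and 487.7, 381.5, 300.3 and 477.1 in TAZG197V. Pdk2 followed with 116.1 ± 8.72 and 91.6 ± 4.72 CPM per kilobase, then Pdk1 with 27.2 ± 2.52 and 30.03 ± 1.43, and Pdk3 with 1.10 ± 0.508 and 1.32 ± 0.154. The order of the group means was the same in both genotypes.

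As a share of the summed level of these kinases per kilobase, Pdk2 made up 38.1%, 26.8%, 29.15% and 21.4% in WT 1 to 4 and 15.5%, 17.8%, 20.6% and 15.8% in TAZG197V 1 to 4. The genotypes did not overlap, although WT 4 and TAZG197V 3 were within 1 percentage point of each other. Pdk4 made up 64.0% ± 8.91 in WT and 76.6% ± 3.41 in TAZG197V, with overlap, since WT 4 had 74.0% and TAZG197V 3 had 72.0%. The sum itself was 419.3 ± 107.6 CPM per kilobase in WT and 534.6 ± 93.2 in TAZG197V, and it overlapped as well. With the longest transcript as the length, the Pdk4 share was 55.9% and 69.8%. These shares are descriptions of transcript levels without a test.

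**Figure D2:**
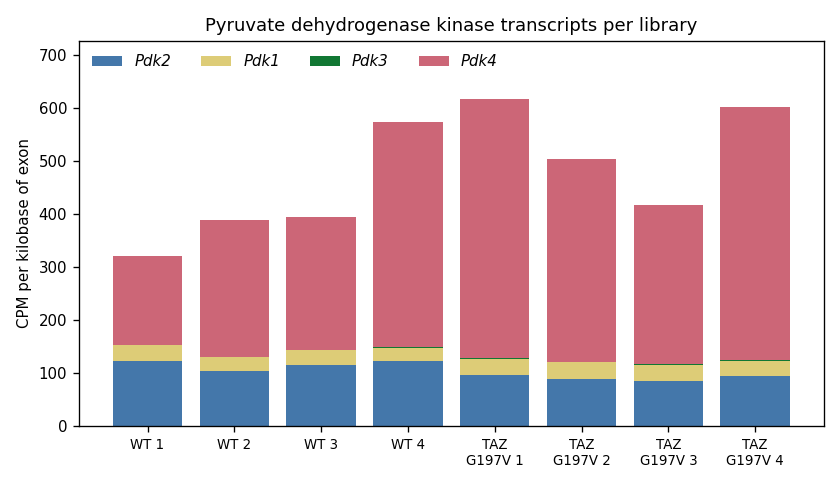
Stacked bars of the kinase transcripts in each library, in TMM-scaled CPM per kilobase of exon on an axis that starts at 0, with Pdk2 at the base, then Pdk1, Pdk3 and Pdk4 on top. The Pdk2 segment is shorter in each TAZG197V library than in each WT library, whereas the Pdk4 segment of WT 4, at 424.0, is taller than those of TAZG197V 2 and 3.

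Pdp1 encodes the catalytic phosphatase subunit that is stimulated by calcium and is typical of muscle (ENSMUSG00000049225, chr4:11958184-11966452, minus strand). WT libraries had 52.8, 52.7, 47.7 and 55.5 CPM and TAZG197V libraries 55.4, 59.8, 55.3 and 50.3 CPM. The genotypes overlapped, and the log2 fold change was 0.07 with a 95% interval of -0.10 to 0.25 (adjusted p = 0.457, edgeR). No alternative called it.

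Pdp2 and Pdpr, which were not among the 10 genes, behaved otherwise. Pdp2 encodes the second catalytic phosphatase subunit, which is insensitive to calcium (ENSMUSG00000048371, chr8:104591451-104599026, plus strand), and Pdpr the regulatory subunit of the phosphatase (ENSMUSG00000033624, chr8:111094630-111137074, plus strand). For Pdp2, WT libraries had 56.1, 50.5, 54.1 and 70.8 CPM and TAZG197V libraries 26.5, 23.7, 19.9 and 24.3 CPM. The highest TAZG197V library was thus far below the lowest WT library. The log2 fold change was -1.32 (SE 0.0967, 95% interval -1.54 to -1.10, adjusted p = 4.3e-05, edgeR), which is 59.9% lower, and in the alternatives it was -1.39 to -1.19. Pdpr was at 143.2, 119.8, 120.6 and 141.8 CPM in WT and 90.1, 81.6, 92.5 and 79.0 CPM in TAZG197V, again without overlap (3.36% of its exon bases overlap 9430091E24Rik). Its log2 fold change was -0.64 (SE 0.0817, 95% interval -0.82 to -0.45, adjusted p = 0.000629, edgeR), and both genes were called in all 17 alternatives. Without both number 4 libraries the log2 fold changes were -1.20 for Pdp2 and -0.54 for Pdpr.

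Of the 3 phosphatase subunit genes, 2 fell and 1, Pdp1, did not pass the test, beside 33.5% of all genes tested called and 15.1% called lower. Pdp1 and Pdp2 had like levels per kilobase in WT, with 11.6 ± 0.727 and 10.2 ± 1.56 CPM per kilobase, but in TAZG197V they stood at 12.25 ± 0.861 and 4.145 ± 0.481. The ratio of Pdp1 to Pdp2 was 0.991 to 1.32 in WT and 2.61 to 3.51 in TAZG197V. The ratio of the summed kinases to Pdp1 was 36.1 ± 8.02 and 44.0 ± 9.58, with overlap. The first of these ratios was chosen after its values were seen.

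**Figure D3:**
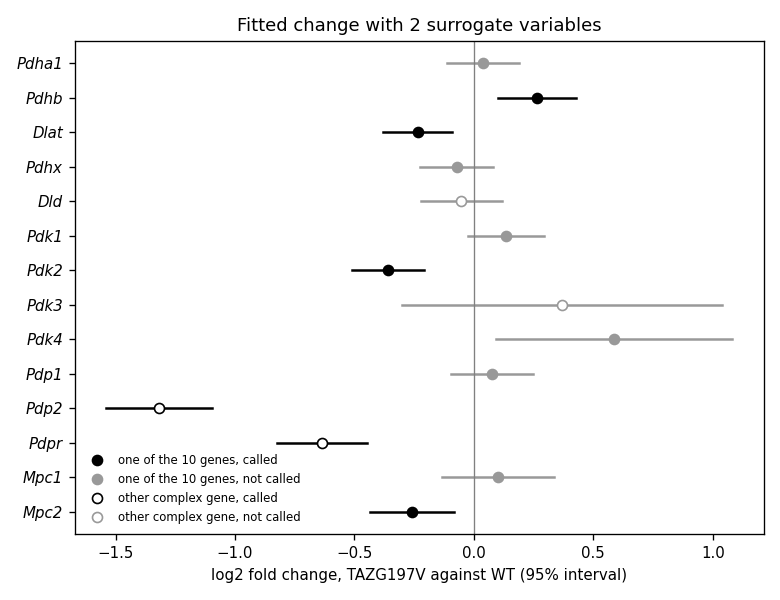
Fitted log2 fold change of TAZG197V against WT for the 10 genes (filled points) and 4 further genes of the complex (open points), with the 95% interval as a line and called genes in black. Pdp2 at -1.32 and Pdpr at -0.64 lie to the left of all others, and the interval of Pdk4 runs from 0.09 to 1.08 although the gene was not called.

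Pdk2, Pdp2 and Pdpr, the genes of the complex that were lower in every TAZG197V library than in any WT library, also share a short sequence upstream of their starts. In the 300-base windows of RefSeq (250 bases before the start and 50 after, GRCm38.p6), which 13 of the 14 genes of the complex and carrier had, each of these 3 held the palindrome CACGTG, the E-box read by several basic helix-loop-helix factors. The stretches around it are shown 5′ to 3′ on the strand of the gene, with the palindrome in capitals.
Pdk2: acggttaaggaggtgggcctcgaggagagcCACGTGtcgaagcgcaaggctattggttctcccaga
Pdp2: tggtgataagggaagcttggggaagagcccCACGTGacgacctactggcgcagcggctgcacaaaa
Pdpr: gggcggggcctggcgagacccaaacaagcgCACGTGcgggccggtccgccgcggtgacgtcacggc

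The Pdk2 stretch is chr11:95041462-95041527 on the minus strand, and its palindrome starts 126 bases before the transcript start that the window is set on. A window at another start of Pdk2 (chr11:95040826-95041125) did not hold the palindrome. The Pdp2 stretch is chr8:104591223-104591288 on the plus strand with the palindrome from 219 bases before the start, and the Pdpr stretch is chr8:111094543-111094608 on the plus strand with the palindrome from 172 bases before it. These 3 genes were grouped by their values in these data, and the palindrome was looked at after the matches of a shorter core were seen. That they share it is therefore a description and no test. The palindrome occurs in 7.15% of all 32851 windows. Counted per gene instead, where any window of a gene may hold it, the share was 11.5% of the 11116 genes tested that had a window. It was 15.9% for those called higher, 8.99% for those called lower and 10.7% for those not called. Of the 13 genes here with a window, 3 held it (23.1%). The share per window and the shares per gene are unlike measures. A match describes the letters of the window and is not evidence of a bound site.

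Of the 5 motifs searched on both strands, only ACGTG, the core that hypoxia elements and E-boxes share and which lies inside CACGTG, was found in these genes. It occurred in Pdhb, Pdk2, Pdk3, Pdp2 and Pdpr and in 19.6% of all windows. AAGGTCA, a nuclear receptor half-site, occurred in 4.72% of all windows, TGTTTAC, a FoxO core, in 3.65%, CATGCGC, an Nrf1 half-site, in 3.91%, and TGATGNA, the start of an ATF4 element, in 12.2%, and none of these was in a window of the 13 genes. For Pdp1 no window was given. The 300 bases do not cover distant elements, so nothing follows for the factors themselves.

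The mitochondrial pyruvate carrier is a heterodimer of Mpc1 and Mpc2 in the inner membrane. Mpc1 (ENSMUSG00000023861, chr17:8282904-8297661, plus strand) had 60.4, 44.0, 54.5 and 43.4 CPM in WT and 57.3, 53.0, 55.4 and 52.55 CPM in TAZG197V. All TAZG197V libraries fell inside the WT range. The log2 fold change was 0.10 with a 95% interval of -0.13 to 0.34 (adjusted p = 0.462, edgeR). The count of Mpc1 is uncertain, since 23.1% of its exon bases overlap 4930506C21Rik and 26.3% of its windows recur in that gene or in related copies.

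Mpc2 (ENSMUSG00000026568, chr1:165460637-165481214, plus strand) had 278.5, 218.9, 279.8 and 221.2 CPM in WT and 214.9, 220.3, 214.4 and 192.6 CPM in TAZG197V. WT 1 and 3 were high and WT 2 and 4 were close to the TAZG197V libraries, so that the genotypes overlapped. The mean fell from 249.6 ± 34.1 to 210.6 ± 12.2 CPM, and the log2 fold change was -0.26 (SE 0.0763, 95% interval -0.43 to -0.08, adjusted p = 0.0280, edgeR). This call was the least stable of the 4, for it held in 8 of 17 alternatives. The adjusted p was 0.0583 without TAZG197V 1, 0.0602 without TAZG197V 2, 0.0725 without TAZG197V 4 and 0.0869 without WT 3, and it was 0.1095 with the lane as covariate. The call held without WT 1 (log2 fold change -0.24, adjusted p = 0.0467), without WT 2 (-0.27 and 0.00541), without WT 4 (-0.31 and 0.00369) and without both number 4 libraries (-0.24 and 0.0215).

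Per kilobase, the ratio of Mpc1 to Mpc2 was 0.765, 0.708, 0.688 and 0.692 in WT and 0.941, 0.849, 0.912 and 0.962 in TAZG197V. The genotypes did not overlap, and the SDs of 0.0356 and 0.0494 were small beside the gap of the means, 0.713 and 0.916. With the longest transcript as the length the means were 0.845 and 1.085, so the chain that leads in TAZG197V depends on the length taken. The ratio is given without a test.

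Across all genes of the complex and the carrier, the order of levels per kilobase was similar in both genotypes. Pdha1 led in WT with 281.2 ± 15.7 CPM per kilobase, beside Pdk4 with 274.9 ± 107, which did not differ beyond their spread. Dld, Pdk2, Pdhb and Dlat followed with 150.8 ± 14.1, 116.1 ± 8.72, 109.1 ± 13.2 and 94.5 ± 7.20, and from Pdk2 on neighbours differed by less than the sum of their SDs. Pdhx (40.2 ± 5.58), Mpc2 (34.0 ± 4.65), Pdk1 (27.2 ± 2.52), Pdpr (26.1 ± 2.56) and Mpc1 (24.3 ± 3.99) formed a lower range in which the same held. In TAZG197V, Pdk4 stood first with 411.6 ± 88.25 and Pdha1 next with 290.7 ± 9.30, while Pdhb (131.8 ± 12.5) was above Pdk2 (91.6 ± 4.72). With the longest transcript as the length, Pdhb was above Pdk2 in WT too, with 177.2 ± 21.5 against 163.5 ± 12.3.

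By the file names, lane 7 held libraries 1 and 2 and lane 8 libraries 3 and 4 of each genotype. The difference of mean log2 CPM, TAZG197V minus WT, had the same sign in both lanes for 13 of the 14 genes, Pdhx being the exception with 0.05 in lane 7 and -0.14 in lane 8. Pdk2 differed by -0.29 and -0.39, Pdp2 by -1.09 and -1.49 and Pdpr by -0.61 in each lane, and these 3 did not overlap in either lane. With 2 libraries per genotype in a lane, a lack of overlap says little, and its share over all genes was not taken. Pdk1 and Pdp1, which were not called, did not overlap in lane 7 either. Pdhb differed by 0.36 and 0.19, Dlat by -0.17 and -0.26, and Mpc2 by -0.18 and -0.29, with overlap in 1 lane each. Pdk4 differed by 1.05 in lane 7, where the genotypes did not overlap, and by 0.22 in lane 8, which holds both number 4 libraries.

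**Figure D4:**
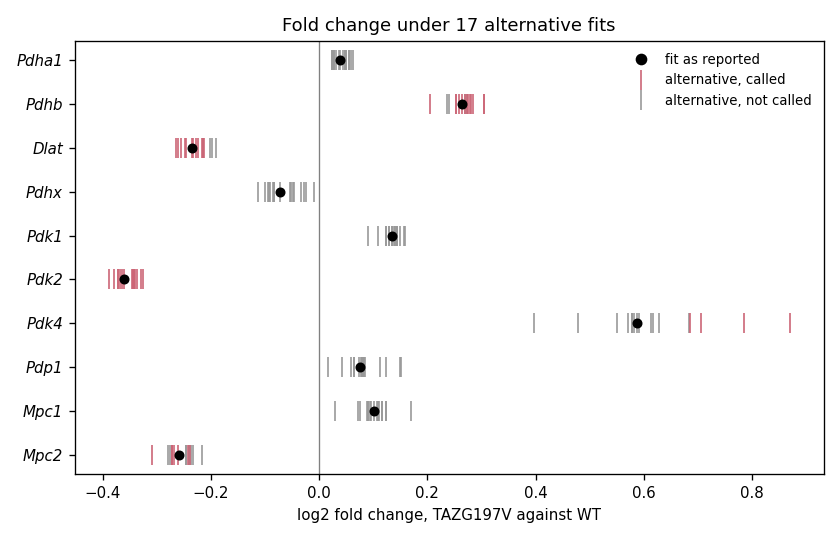
Log2 fold change of each of the 10 genes as reported (black point) and in 17 alternative fits (ticks, red where the gene was called and grey where it was not). None of the 10 crossed 0 between fits, Pdk2 was called in all 17, and Pdk4 ran from 0.40 to 0.87.

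Around the complex, 61 further genes were listed by role, of which 57 were tested, and 27 were called, 11 higher and 16 lower, a share of 47.4% against 33.5% of all genes tested and 40.9% of those with the minimum count. The first list, the remaining genes of the complex, held Dld, Pdk3, Pdp2 and Pdpr as described, Pdha2, a testis form of the alpha chain with 0 counts in all libraries, and Mpc1l, which is not in the annotation used. Cofactor supply came next, as E2 carries lipoate and E1 binds thiamine diphosphate. Of 8 such genes 2 rose and none fell. Slc19a2, a plasma membrane thiamine transporter, went from 11.3 ± 2.12 to 42.3 ± 3.54 CPM, and each TAZG197V library (37.1 to 44.7 CPM) was above each WT library (9.27 to 14.15 CPM). Its log2 fold change of 1.86 (SE 0.112, adjusted p = 1.5e-05, edgeR) exceeded that of every one of the 10 genes. Lias, which builds lipoate, rose by a log2 fold change of 0.21 (adjusted p = 0.0168, edgeR), a call that held in 13 of 17 alternatives. The other thiamine transporter, Slc19a3, was at 0.721 ± 0.142 and 2.16 ± 0.453 CPM, and its mean count was under the minimum of 50, so it was not called and is named after its values were seen.

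The sister complexes use the same E3 and the same chemistry on 2-oxoglutarate and on branched-chain 2-oxoacids. Of their 8 genes, 6 fell and none rose, where 15.1% of all genes tested were called lower. Of the 6 calls, those of Bckdha and Bckdk were less stable, holding in 7 and 11 of 17 alternatives, and 49.6% of the windows of Bckdha also occur in B3gnt8. Ppm1k, the phosphatase of the branched-chain complex, had the largest change at -0.82 on the log2 scale (138.4 ± 16.4 to 77.5 ± 6.925 CPM, adjusted p = 0.000207, edgeR). Dhtkd1, an E1 of the 2-oxoadipate pathway, changed by -0.51 and Dlst, the E2 of the 2-oxoglutarate complex, by -0.37 (adjusted p = 0.0129 and 0.00378). The median log2 fold change over the list was -0.30.

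Pyruvate has other sources and fates, and of the 13 tested genes of this list 4 rose and 5 fell, beside 18.5% and 15.1% of all genes tested. Among the 5, the call of Pcx, pyruvate carboxylase, held in 6 of 17 alternatives. Gpt, the cytosolic alanine aminotransferase, fell by 1.14 on the log2 scale (38.5 ± 6.16 to 17.7 ± 1.16 CPM, adjusted p = 0.000186, edgeR), while Gpt2, its mitochondrial counterpart, rose by 0.87 (46.0 ± 4.08 to 84.9 ± 4.42 CPM, adjusted p = 9.0e-05). Ldhd, which oxidises D-lactate to pyruvate, changed by -0.76 (adjusted p = 0.00014), but its count is uncertain, since 42.15% of its exon bases overlap Znrf1 and 40.2% of its windows recur there. These 3 genes showed no overlap between genotypes and were called in all 17 alternatives.

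Of 9 genes known to control transcription of the kinases, 3 rose and 1 fell, a share of 44.4% called, beside 33.5% of all genes tested and 40.9% of those with the minimum count. Esrrg, an orphan nuclear receptor, rose by 0.49 on the log2 scale, Foxo3, a forkhead factor, by 0.46, and Hif1a, the oxygen-regulated subunit of HIF-1, by 0.44 (adjusted p = 0.0045, 0.00139 and 0.00655, edgeR). In Hif1a, TAZG197V 4 had 79.5 CPM and lay inside the WT range of 78.7 to 86.1 CPM, and the other TAZG197V libraries had 113.5 to 135.2 CPM. The single gene that fell was the glucocorticoid receptor gene Nr3c1, chosen for naming after its value was seen.

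For further targets of the factors known to act on Pdk4 and Pdk1, the shares called were 25.0% and 28.6%, beside the 33.5% of all genes tested (18.5% higher and 15.1% lower). Of 8 PPAR and FoxO targets, 1 rose and 1 fell. Acot2, a mitochondrial acyl-CoA thioesterase, went from 62.7 ± 7.54 to 231.8 ± 8.99 CPM (log2 fold change 1.87, adjusted p = 3.6e-06, edgeR), and its cytosolic paralog Acot1 changed by -1.30 (adjusted p = 5.0e-05). Counts of this pair are uncertain, as 19.2% of the windows of Acot1 and 27.7% of those of Acot2 recur elsewhere. Of 7 tested HIF-1 targets, Slc2a1, a glucose transporter, changed by 0.88 and Egln3, a prolyl hydroxylase, by -1.06 (adjusted p = 0.000142 and 0.00109), and 5 did not pass the test.

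**Figure D5:**
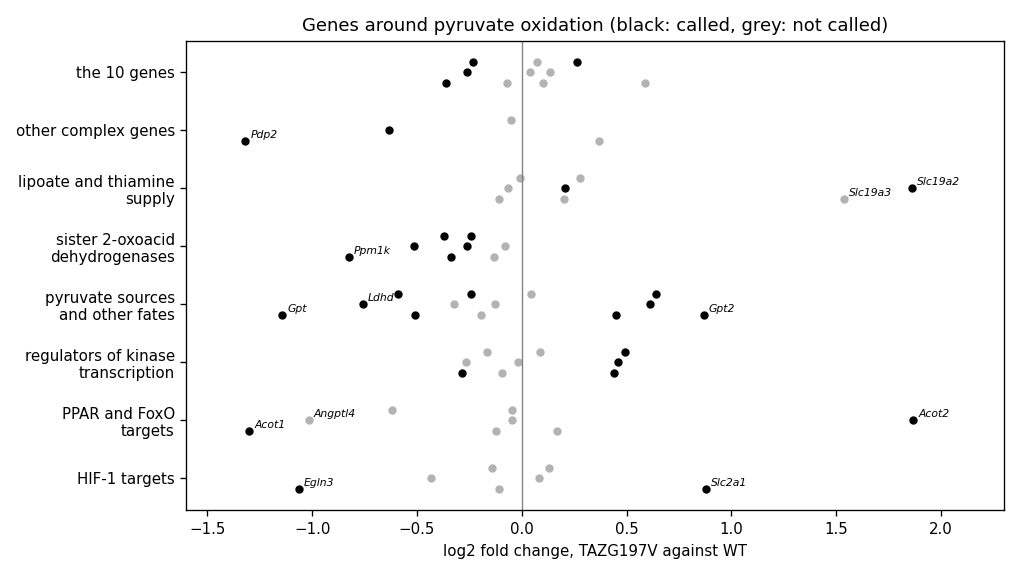
Log2 fold change of TAZG197V against WT for the 10 genes and for the tested genes of each further list, 1 row per list and 1 point per gene, black where called and grey where not, with the points farthest from 0 named. All 8 genes of the sister dehydrogenases lie below 0, and the 10 genes lie nearer to 0 than Slc19a2 at 1.86 or Pdp2 at -1.32.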

How the data were processed

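Single-end reads of 50 bases were demultiplexed with bcl2fastq 2.20.0, checked with FastQC 0.11.9, aligned to mm10 with STAR 2.7.3a and counted over exons with featureCounts of Subread 2.0.0, per the labels and the methods of the study. The authors deposited raw counts for each Ensembl gene. Which annotation and strand setting they used, and how reads with several alignments were treated, is not given in the sources used here. GENCODE M21 (GRCm38) supplied positions and symbols and named 55230 of 55471 genes. The 92 spike-in rows held 0 counts and were left out.

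Counts were analysed with edgeR 4.0.16 in R 4.3.3, after filterByExpr and TMM scaling, with 2 surrogate variables from svaseq (sva 3.50.0, seed 1). The effect of genotype was taken from the two-sided quasi-likelihood F-test with Benjamini-Hochberg adjustment over 15084 genes. SE was the log2 fold change divided by the square root of F. The procedure was tested on simulated data. Alternatives were DESeq2 1.42.0, other scaling, covariates and filters, and fewer libraries. The members, the gene lists and the fits were chosen with earlier results of these data known. The text names the 10 members, Taz, every gene of the first list and up to 3 called genes with the largest change in each other list. Bckdha, Bckdk, Pcx, Nr3c1 and Slc19a3 fall outside this rule and were named after their values were seen. Shared windows are the 50-base stretches of annotated transcripts that also occur in another gene. The SD over 4 libraries, rather than counting error, sets the precision of the values given.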

Additional observations from a re-analysis of the deposited data

How the results depend on the processing

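Over the 10 genes and 17 alternative fits there were 170 values, of which 149 kept their direction and side of the threshold, 17 lost a call, 4 gained one, all for Pdk4, and 0 reversed. The count of the 10 genes called was 4 in the fit reported, 1 with the lane in place of the surrogate variables, 2 with no surrogate variables, 0 at a fold change of at least 1.5, and 2 to 5 when each library was left out in turn. It was 2 without TAZG197V 1 or without TAZG197V 2, and 5 without WT 4. Genes called numbered 5060, 1843 at a fold change of at least 1.5, and 3675 to 5243 with a library left out, the lowest without TAZG197V 2. The further lists gave 27 calls, 14 at that fold change and 23 to 28 with a library left out. The cause of these differences was not tested, apart from the stricter fold change, which removes smaller changes by construction.

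The labels do not say that equal numbers mark a shared origin, and deviations of WT and TAZG197V libraries of the same number correlated at 0.277, 0.0436, 0.280 and 0.416. The pair numbered 2 was below 0.1, so pairing was not established. WT 3 correlated best with TAZG197V 2 (0.317) and the other 3 with their own number, a hint from the data and not from the design. With the replicate block in place of the surrogate variables, 4272 genes, 3 of the 10 genes and 25 of the further genes were called, and Mpc2 had an adjusted p of 0.0739 in edgeR.

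Depth limits Pdk3, at 43 to 140 counts per library, more than the 10 genes. Mpc1, Pdha1 and Pdhb share sequence with other loci, so their counts are less certain than those of Pdk2, Dlat or Pdp1.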

Other observations

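Within both genotypes, 28 sets of 4 libraries (14 genes in WT and in TAZG197V) were searched for a single library far from the others by Dixon's criterion. None of the 28 passed it, where chance would give about 1.4.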
